A study of Mus musculus with 20 samples.

Results

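Potassium channel genes were taken as every gene of the 2 count tables whose symbol begins with Kcn, leaving out pseudogenes and antisense transcripts, which gave 94 of 22048 genes. Of these, 17 encode the voltage-gated Kv1 to Kv4 subunits (Kcna, Kcnb, Kcnc and Kcnd), 15 the inward rectifiers (Kcnj) and 14 the 2-pore leak channels (Kcnk). Another 12 encode the channels opened by calcium or sodium (Kcnm, Kcnn, Kcnt and Kcnu), 8 the ether-a-go-go channels (Kcnh) and 5 the M-current family (Kcnq). A further 10 encode modulatory subunits that are silent alone and join Kv2 channels (Kcnf, Kcng, Kcns and Kcnv), 12 encode auxiliary proteins (Kcnab, Kcne and Kcnip), and Kcnrg stood alone. Male C57BL6/J mice, 10 weeks old at the start, drank water with 1% ethanol for 2 days or for 4 weeks. This water held 75 μg/ml corticosterone (Cort) or ethanol alone (vehicle). The arcuate nucleus (ARC) was cut out by laser capture, and its RNA was amplified and sequenced in 5 vehicle and 5 Cort samples per dataset. Only the 4 week mice had been fasted for 16 h and refed for 24 h, and the datasets differed in section thickness, slides, laser system and sequencer, so the length of treatment cannot be told apart from these differences.

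The study set aside 2 vehicle samples and 1 Cort sample per dataset because they stood apart in principal components, and the comparisons here use the 7 samples kept unless all 10 are named. Total counts ranged from 2487063 to 5748223 per sample at 2 days and from 1065776 to 5196364 at 4 weeks. At these depths 3 counts, treated as the floor, were worth 0.512 to 1.19 CPM (counts scaled to library size) at 2 days. The 4 week values were 0.619 to 2.75 CPM. This floor covers counting error only since amplified reads are not independent molecules. Genes of the ARC were present in every sample kept, with Agrp at 122.1 CPM or more and Pomc at 235.8 CPM or more at 2 days, and at 100.2 and 120.1 CPM or more at 4 weeks. Kiss1, of another ARC neuron, did not exceed 1.25 CPM in any sample kept. In bulk tissue, fewer cells of a type and less RNA per cell cannot be told apart. The mice were singly housed, the sources used here do not say which shared a litter, and the p-values measure the spread between these samples.

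Potassium channels let potassium leave the cell and so pull the membrane away from the firing threshold. Voltage-gated Kv channels end the action potential and set firing rate, Kcnq channels carry the M-current that restrains repetitive firing, and inward rectifiers hold the resting potential. In the ARC, neurons that sense hormones and fuel are silenced by G protein-coupled inward rectifiers (Kcnj3, Kcnj5, Kcnj6 and Kcnj9) and by the ATP-sensitive channel (Kcnj8 or Kcnj11 with a sulfonylurea receptor), while glia clear extracellular potassium through Kcnj10 and Kcnj16.

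Expression of the channel genes spanned the whole range of detection. In all 20 samples together, 29 of the 94 genes were above 3 counts in every sample, and 15 genes did not rise above 3 counts in any sample, among them Kcnj1, Kcnj15, Kcnn4 and Kcna7. Levels of different genes are compared below only as CPM per kilobase of exon, from the 5 vehicle samples of each dataset (mean ± SD). The inward rectifiers, through Kcnj10, made up 30.28% to 44.08% of the summed level of the 94 genes per kilobase in the 2 day samples and 19.83% to 33.96% in the 4 week samples. The auxiliary genes made up 18.03% to 24.36% and 14.48% to 24.34%, and the Kv1 to Kv4 genes 13.14% to 22.53% and 14.91% to 29.0%, so these ranges overlapped in both datasets.

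Among inward rectifiers, Kcnj10, the main potassium channel of astrocytes, was the most abundant of the 94 genes at 176 ± 36.04 CPM per kilobase at 2 days and 85.1 ± 24.1 at 4 weeks. Its partner Kcnj16 was at 34.6 ± 7.17 and 37.7 ± 26.9. The neuronal G protein-coupled rectifiers lay below, with Kcnj3 at 10.6 ± 1.51 and 12.7 ± 8.23, Kcnj9 at 15.2 ± 9.95 and 3.04 ± 3.301, Kcnj6 at 3.88 ± 0.741 and 6.75 ± 7.09, and Kcnj5 at 8.42 ± 4.73 and 1.97 ± 0.701 CPM per kilobase. At 2 days the ranges of Kcnj3 and Kcnj9 overlapped within their SD, so these neighbours could not be ordered. The pore genes of the ATP-sensitive channel were close to the floor, Kcnj11 at 0.432 ± 0.447 and 0.268 ± 0.419 and Kcnj8 at 1.41 ± 2.25 and 0.782 ± 1.57. Kcnj11 was above 3 counts in 8 of 10 samples at 2 days and 2 of 10 at 4 weeks, and Kcnj8 in 7 and 2. Kcnj13, a rectifier of choroid plexus and other epithelia, was above 3 counts in 3 of all 20 samples, and 49.1% of its exon bases also lie in Gigyf2.

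Among the leak channels, Kcnk2 (TREK-1) and Kcnk1 (TWIK-1) led with 20.5 ± 5.29 and 18.3 ± 4.76 CPM per kilobase at 2 days and 24.8 ± 7.21 and 10.8 ± 5.73 at 4 weeks. The acid-sensitive Kcnk3 was at 7.53 ± 3.46 and 2.92 ± 1.91 and Kcnk9 at 1.06 ± 0.529 and 3.53 ± 2.096. Of the Kv1 to Kv4 genes, the A-type Kv4 subunits Kcnd2 and Kcnd3 stood first, at 24.6 ± 3.22 and 17.1 ± 3.799 at 2 days and 13.5 ± 3.705 and 11.2 ± 7.98 at 4 weeks. The A-type current needs partners that bind Kv4 channels, and Kcnip3 (51.4 ± 17.1 and 28.9 ± 17.4) and Kcnip4 (23.9 ± 3.17 and 37.2 ± 23.8 CPM per kilobase) were the most abundant auxiliary genes over both datasets together. The delayed rectifier Kcnc1 was at 10.4 ± 3.89 at 2 days and 10.8 ± 3.64 at 4 weeks. Kcna2, of axons, was at 8.59 ± 2.59 and 7.52 ± 2.45, well above Kcna1 at 0.578 ± 0.259 and 1.65 ± 1.59.

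The M-current gene Kcnq3 was at 10.5 ± 2.65 CPM per kilobase at 2 days and 12.03 ± 10.2 at 4 weeks, above Kcnq5 at 1.75 ± 1.03 and 1.09 ± 0.694. Of the calcium-activated channels, the small-conductance Kcnn3 was highest at 9.74 ± 2.54 and 18.2 ± 6.67, above Kcnn2 (1.88 ± 0.382 and 2.85 ± 3.93), Kcnn1 (0.369 ± 0.633 and 0.103 ± 0.231) and the large-conductance Kcnma1 (3.12 ± 1.13 and 3.15 ± 1.903). The sodium-activated Kcnt2 was at 4.31 ± 2.67 and 2.404 ± 1.49. The ether-a-go-go channels Kcnh2 and Kcnh5 were the highest of their subfamily at 2 days, while at 4 weeks other members lay between them (10.2 ± 3.59 and 7.27 ± 3.21 at 2 days, 7.095 ± 4.13 and 4.59 ± 4.89 at 4 weeks). Among modulatory subunits Kcnf1 was at 5.596 ± 3.78 and 1.79 ± 1.76 and Kcng2 at 0.898 ± 1.09 and 2.18 ± 3.38. Kcnrg was at 0.713 ± 1.47 and 0.0881 ± 0.197.

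**Figure D1:**
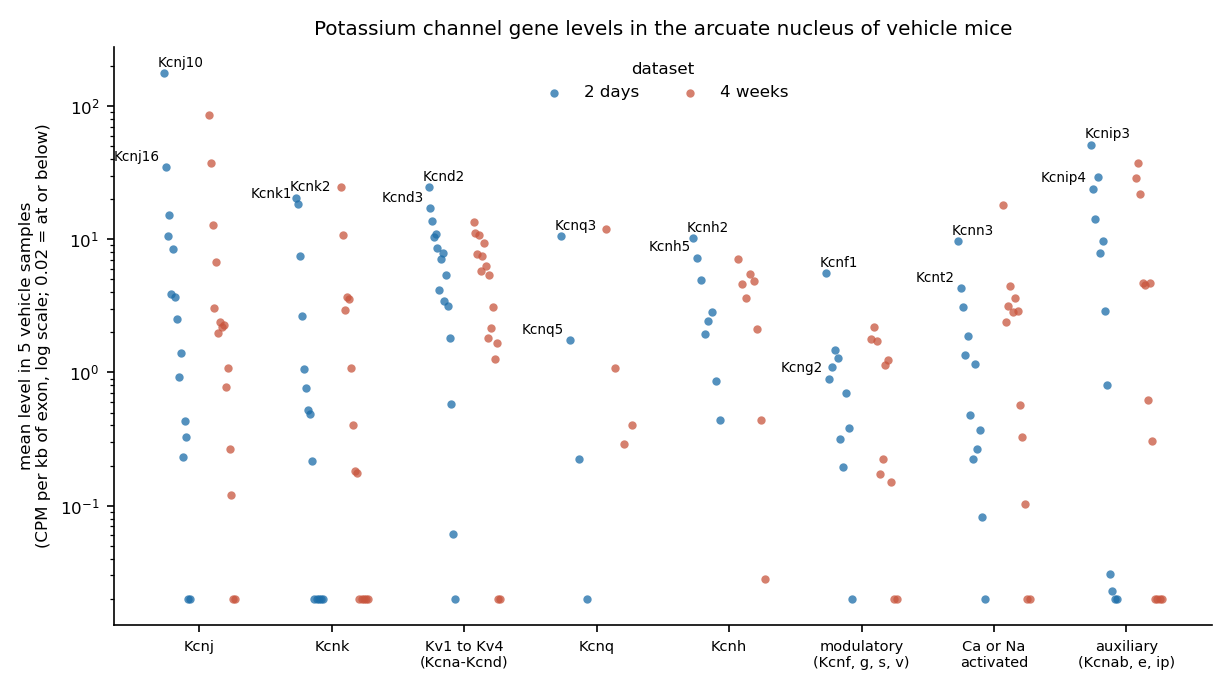
Mean level of potassium channel genes in the 5 vehicle samples of a dataset, in CPM per kilobase of exon on a log axis, by subfamily and for 2 days (blue) and 4 weeks (red), with leading genes of each subfamily named. Kcnj10 stands above every other gene in both datasets, and points on the lowest line are at 0.02 CPM per kilobase or less.

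Cort and vehicle were compared by edgeR's quasi-likelihood test over all genes that passed its filter on low counts, with Benjamini-Hochberg adjustment (Padj). Genes were counted at P below 0.05, at P below 0.01 and at Padj below 0.1. The latter 2 are the thresholds of the study, which applied them with DESeq2, a different test whose calls are given below. The filter passed 64 of the 94 genes at 2 days and 52 at 4 weeks, 51 of them in both. None of them reached Padj below 0.1 in either dataset in this test. This compares with 0.065% of 12309 genes tested at 2 days and 0.0446% of 11211 at 4 weeks, that is 8 and 5 genes. At P below 0.05 there were 10 potassium channel genes at 2 days (15.6%, against 5.97% of all genes), of which 4 were higher and 6 lower with Cort. The higher ones were Kcnip1, Kcnn1, Kcnk9 and Kcnab1, and the lower ones included Kcna3, Kcnh5, Kcnj16, Kcng1 and Kcnj2. At 4 weeks there were 6 (11.5%, against 4.91%). Kcnj3, Kcns3, Kcna3, Kcnq3 and Kcnq5 were higher and Kcnj10 was lower. At P below 0.01 there were 3 genes at 2 days (4.69%, against 1.49%), namely Kcnip1, Kcna3 and Kcnh5. At 4 weeks there were also 3 (5.77%, against 1.03%), namely Kcnj3, Kcns3 and Kcna3. Kcnn1 at 2 days and Kcns3 at 4 weeks had at most 3 counts in each kept vehicle sample and passed the filter through the Cort samples alone. Without them 9 genes at 2 days and 5 at 4 weeks had P below 0.05, and 2 at 4 weeks had P below 0.01. The kept vehicle and Cort samples did not overlap for 9 of the 64 genes at 2 days (14.1%, against 6.63% of all genes) and 9 of the 52 at 4 weeks (17.3%, against 6.53%). The median log2 fold change of the genes tested was -0.05 at 2 days, with 28 of 64 positive (all genes 0.02), and 0.10 at 4 weeks, with 31 of 52 positive (all genes 0.04).

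These counts moved with the samples used. At 2 days, the 10 genes at P below 0.05 became 5 of 66 (7.58%, against 5.11% of all genes) without vehicle sample C02 and 6 of 66 (9.09%, against 4.37%) without vehicle sample C05, and with all 10 samples they were 9 of 59 (15.3%, against 5.28%). At 4 weeks, all 10 samples gave 2 of 49 (4.08%, against 4.9% of all genes), a share no larger than that of all genes. DESeq2 gave 10 of 82 (12.2%, against 6.18%) at 2 days and 13 of 79 (16.5%, against 6.53%) at 4 weeks, where Kcnj3, Kcns3 and Kcna3 also passed Padj below 0.1 (3 of 79, against 0.449% of all genes). The 13 include Kcns3, Kcnu1, Kcng3 and Kcng4, each with at most 2 counts in every kept sample of 1 treatment group. The 10 at 2 days include Kcnn1, with at most 3 counts in each kept vehicle sample. Such genes can be called only through the group where they are high, so these shares are partly set by low counts.

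The potassium channel gene with the smallest P for a difference between the datasets was Kcna3, which encodes Kv1.3, a voltage-gated channel of neurons, microglia and lymphocytes (gene ENSMUSG00000047959 on chromosome 3, 107036169 to 107038070, plus strand, GRCm38). At 2 days it was at 15.4, 16.8 and 30.5 CPM in the kept vehicle samples and 6.83, 6.74, 8.57 and 7.56 CPM in the kept Cort samples. Every kept Cort sample was below every kept vehicle sample, with a log2 fold change of -1.48 ± 0.49 (Padj = 0.58). The vehicle samples set aside, at 4.05 and 7.99 CPM, lay within or below the Cort range, and the Cort sample set aside was at 2.87 CPM, so the groups of 5 overlapped. At 4 weeks Kcna3 was at 6.76, 2.81 and 5.82 CPM in the kept vehicle samples and 74.9, 47.4, 14.9 and 15.1 CPM in the kept Cort samples, and here Cort was the higher group. The samples set aside fell on the same sides, vehicle at 0.918 and 0.839 and Cort at 12.6 CPM, so all 5 Cort samples were above all 5 vehicle samples. Both of these vehicle values were under the floor of their samples, 2.75 CPM in C01 and 1.26 CPM in C05. C01 also had the fewest counts of the dataset, 1065776. The log2 fold change at 4 weeks was 2.87 ± 0.98 (Padj = 0.94), and the exact 2-sided permutation test of 5 against 5 gave p = 0.0079, adjusted p = 0.16 over the 20 such tests, the smallest p that 5 against 5 can give being 0.0079.

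The difference between the 4 week and the 2 day Cort effect on Kcna3 was 4.35 ± 1.03 on the log2 scale (Padj = 0.7 over 12777 genes by edgeR). DESeq2 put the same difference at 4.35 ± 0.90, with Padj = 0.0029, past the threshold. Over all 10 samples per dataset edgeR gave 4.41 ± 1.13 (Padj = 0.53). Summed over 6 genes, microglial markers were at 206.1 to 258.8 CPM in kept vehicle and 213.4 to 299.9 CPM in kept Cort samples at 2 days. At 4 weeks they were at 199.2 to 270.0 and 107.7 to 265.0 CPM, so they overlapped between groups in both datasets. The samples set aside at 4 weeks were at 92.7 to 221.4 CPM in vehicle and 728.2 CPM in Cort, and 1 of the 6 genes, Tmem119, had P below 0.05 there (log2 fold change 2.56, Padj = 0.99).

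Among the inward rectifiers, Kcnj3, the GIRK1 subunit shared by most neuronal G protein-coupled rectifiers, had the smallest P of the channel genes at 4 weeks (ENSMUSG00000026824, chromosome 2, 55435970 to 55598145, plus strand). It was at 28.7, 51.5 and 28.2 CPM in the kept vehicle and 346, 243, 104 and 51.6 CPM in the kept Cort samples, and the lowest Cort value was just above the highest vehicle value. The log2 fold change was 2.35 ± 0.59 (Padj = 0.89). With 100.1 and 122 CPM in the vehicle samples set aside and 198 CPM in the Cort sample set aside, the groups of 5 overlapped and the log2 fold change became 1.49 ± 0.53 (Padj = 0.97). The call depended on the tool, with Padj = 0.023 by DESeq2 and 0.04 by edgeR without the filter on low counts. At 2 days the Kcnj3 groups overlapped, at 58.7, 63.4 and 60.4 CPM in vehicle and 50.9, 105, 72.5 and 67.6 CPM in Cort (log2 fold change 0.29 ± 0.26, Padj = 0.93), and the difference between the datasets was 2.06 ± 0.66 (Padj = 0.71). Of the exon bases of Kcnj3, 31.1% also lie in Gm26794, which is not a row of the count tables, and the strand setting of the counting is not given in the sources used here.

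Kcnj10, the astrocyte channel Kir4.1 (ENSMUSG00000044708, chromosome 1, 172341210 to 172374085, plus strand), had lower mean CPM with Cort in both datasets. At 2 days it was at 1004, 742 and 811 CPM in kept vehicle and 639, 536, 933 and 689 CPM in kept Cort samples, which overlapped (log2 fold change -0.28 ± 0.15, Padj = 0.86). At 4 weeks the kept values were 346, 664 and 445 CPM in vehicle and 212, 209, 329 and 344 CPM in Cort. All 4 Cort samples were below the lowest vehicle sample, the highest of them only just (log2 fold change -0.84 ± 0.29, Padj = 0.96). The Cort sample set aside, at 475 CPM, was within the vehicle range. Kcnj16, which forms channels with Kcnj10 in astrocytes, was at 167, 130.4 and 122 CPM in kept vehicle and 109, 87.2, 112 and 98.6 CPM in kept Cort samples at 2 days, without overlap (log2 fold change -0.45 ± 0.19, Padj = 0.79). Over all 10 samples this was -0.47 ± 0.19 (Padj = 0.92), and the exact permutation test gave p = 0.032, adjusted p = 0.16. At 4 weeks Kcnj16 spread from 41.4 to 204 CPM in kept vehicle and from 61.3 to 249 CPM in kept Cort samples (log2 fold change 0.37 ± 0.58, Padj = 0.99).

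Astrocyte markers were summed over 6 genes, none of them at 0 throughout. Their summed level was 4489 to 4895 CPM in kept vehicle and 3800 to 5683 CPM in kept Cort samples at 2 days. At 4 weeks it was 2755 to 2787 CPM in vehicle and 3045 to 4132 CPM in Cort, higher in every kept Cort sample. The samples set aside were at 1864 to 3972 CPM in vehicle and 4277 CPM in Cort. Only 1 of the 6 genes, the glutamate transporter Slc1a2, had P below 0.05 (log2 fold change 0.46, Padj = 0.93). Slc1a2 made up most of the sum, at 1946 to 2080 CPM in kept vehicle and 2215 to 3341 CPM in kept Cort samples. The log2 fold changes of the others were 0.51 (Gfap), 0.28 (Slc1a3), 0.002 (Gja1), -0.06 (Aqp4) and -1.13 (Aldh1l1), so the markers did not move as a set. Oligodendrocytes also use Kcnj10, and 6 of their markers summed to 338.9 to 419.4 CPM in kept vehicle and 421.3 to 611.2 CPM in kept Cort samples at 2 days, and to 492.1 to 742.6 and 281.2 to 765.5 CPM at 4 weeks. The part of either cell type in the Kcnj10 values was not tested.

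Of the 11 inward rectifiers tested at 2 days, Kcnj10 and Kcnj16 among them, 9 had a negative log2 fold change, and the subfamily's median was -0.45 against 0.02 over all genes. Kcnj2, a strong rectifier of neurons and muscle, was at 8.46, 30.4 and 15.2 CPM in vehicle and 4.78, 10.8, 8.04 and 6.36 CPM in Cort, overlapping (log2 fold change -1.26 ± 0.56, Padj = 0.8). At 4 weeks it was at 3.72, 15.7 and 42.1 CPM in vehicle and 4.13, 0.714, 9.79 and 3.07 CPM in Cort (log2 fold change -2.23 ± 1.24, Padj = 0.99). The G protein-coupled subunits other than Kcnj3 had log2 fold changes at 2 days of -0.38 ± 0.45 for Kcnj5, -0.62 ± 0.42 for Kcnj6 and -0.27 ± 0.33 for Kcnj9. At 4 weeks they were 1.52 ± 1.14, 1.24 ± 0.93 and -0.51 ± 1.00, none of them at P below 0.05 in either dataset. With all 10 samples Kcnj9 at 2 days became -1.08 ± 0.39 (P below 0.05, Padj = 0.91), and at 4 weeks Kcnj6 (-1.06 ± 0.86) and Kcnj9 (1.05 ± 1.21) changed sign. Kcnj11 (0.95 ± 0.98, Padj = 0.95) and Kcnj8 (-1.61 ± 1.09, Padj = 0.9) were tested at 2 days and did not pass the filter at 4 weeks. The median of the 7 rectifiers tested at 4 weeks was 0.37, the value of Kcnj16, with 4 of 7 positive. With all 10 samples Kcnj16 was at -0.39 ± 0.54, so this direction depended on the samples used.

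**Figure D2:**
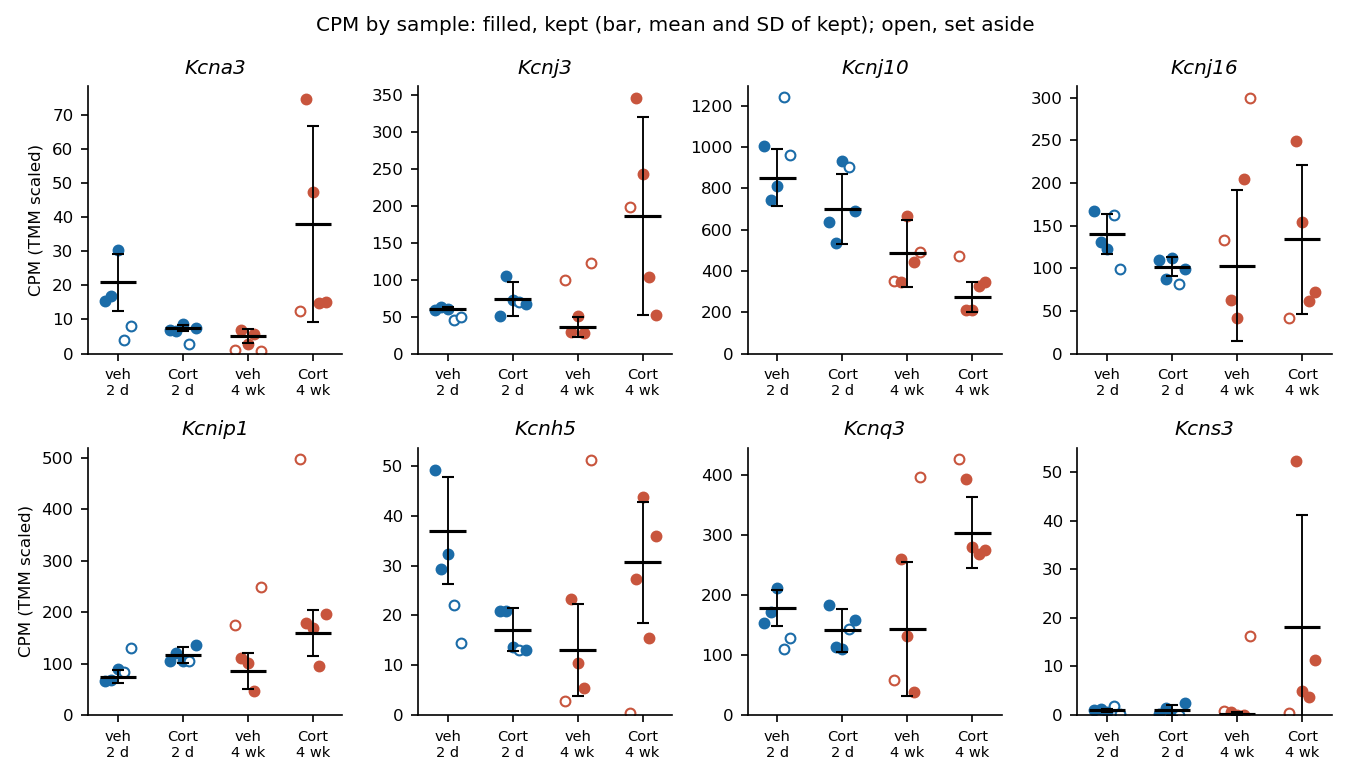
CPM of 8 potassium channel genes in every sample, by treatment and dataset, with filled points for samples kept, open points for samples set aside, and a line and bar for the mean and SD of the samples kept. Kcna3 is lower with Cort at 2 days and higher with Cort in all 5 samples at 4 weeks, and the open Cort point of Kcnip1 at 4 weeks, at 498 CPM, lies far from the filled ones.

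Of the Kv1 to Kv4 genes, 15 were tested in each dataset. At 4 weeks the other Kv1 genes among the 10 smallest P were Kcna4, an inactivating channel, and Kcna5, a delayed rectifier. Kcna4 was at 20.3, 13.3 and 3.13 CPM in kept vehicle and 58.6, 46.2, 25.8 and 32.3 CPM in kept Cort samples, without overlap (log2 fold change 1.72 ± 0.85, Padj = 0.99). Kcna5 was at 21.3, 6.03 and 6.27 and 23.3, 60.00, 26.3 and 38.1 CPM, again without overlap (log2 fold change 1.70 ± 0.87, Padj = 0.99), but of the vehicle samples set aside, at 58.7 and 18.03 CPM, the higher was inside the Cort range. For both, the set-aside samples closed the gap, and the exact permutation tests gave p = 0.095, adjusted p = 0.16 for Kcna4 and p = 0.079, adjusted p = 0.16 for Kcna5.

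At 2 days Kcna4 (0.19 ± 0.47) and Kcna5 (0.01 ± 0.32) had Padj = 0.97 and 1. The difference of the Cort effect between datasets was 1.69 ± 0.80 (Padj = 0.76) for Kcna5 and 1.51 ± 0.94 (Padj = 0.85) for Kcna4. The abundant Kv4 genes varied less, with log2 fold changes of -0.24 ± 0.21 for Kcnd2 and -0.07 ± 0.21 for Kcnd3 at 2 days and 0.38 ± 0.43 and 0.11 ± 0.38 at 4 weeks, none at P below 0.05. The fast-spiking channel gene Kcnc1 was at -0.04 ± 0.26 and 0.02 ± 0.55, and the axonal Kcna2 at 0.13 ± 0.21 and 0.42 ± 0.39. The medians of the subfamily were -0.04 and 0.08.

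Kcns3, a modulatory subunit that alters Kv2 channels, had the largest fitted change at 4 weeks and rested on few counts and 1 sample. It had 0 to 2 counts in the kept vehicle samples (2 in all) and 7 to 253 counts in the kept Cort samples, of which C07 held 253 of 318. In CPM this was 0.676, 0 and 0 in vehicle and 52.2, 5.0, 3.61 and 11.4 in Cort, and the ratio of the pooled counts was 85.7 with an exact 95% counting interval of 23.5 to 711. This interval covers counting error only, not the spread between samples. Since Kcns3 passed the filter through its Cort samples alone, a ratio above 1 is no support for a change. The fitted log2 fold change was 5.99 ± 1.79 (Padj = 0.89), a value that depends on the prior count. In the samples set aside it was at 0.918 and 16.4 CPM in vehicle and 0.315 CPM in Cort, so the groups of 5 overlapped (p = 0.17, adjusted p = 0.27 by the exact permutation test). At 2 days no sample exceeded 2.39 CPM. Of the other modulatory subunits, Kcng1 was at 3.48, 8.84 and 20.7 CPM in vehicle and 4.78, 3.37, 3.21 and 1.99 CPM in Cort at 2 days (log2 fold change -1.69 ± 0.73, Padj = 0.79). The vehicle samples of Kcng1 set aside, at 0 and 0.285 CPM, lay below the Cort range, and the exact permutation test gave p = 0.77, adjusted p = 0.77.

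The M-current genes Kcnq3 and Kcnq5 had positive log2 fold changes at 4 weeks. Kcnq3 was at 260.1, 131 and 38.5 CPM in kept vehicle and 393, 279.8, 269 and 275 CPM in kept Cort samples, with the lowest Cort value just above the highest vehicle value (log2 fold change 1.07 ± 0.46, Padj = 0.99). Kcnq5 was at 4.396, 15.3 and 2.24 and 48.9, 19.05, 21.1 and 40.9 CPM, without overlap (log2 fold change 2.13 ± 0.98, Padj = 0.99). The samples set aside ran across both groups, with Kcnq3 at 58.7 and 397 CPM in vehicle and 427 in Cort, and Kcnq5 at 11.9 and 7.97 in vehicle and 0.315 in Cort. The exact permutation tests over all 10 samples gave p = 0.063, adjusted p = 0.16 for Kcnq3 and p = 0.34, adjusted p = 0.4 for Kcnq5. At 2 days Kcnq3 was at -0.33 ± 0.20 (Padj = 0.89), with overlapping groups, and the difference between datasets was 1.40 ± 0.55 (Padj = 0.71).

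Kcnh5, an ether-a-go-go channel of neurons, was at 49.3, 29.3 and 32.3 CPM in kept vehicle and 20.8, 20.9, 13.6 and 13.1 CPM in kept Cort samples at 2 days, without overlap (log2 fold change -1.10 ± 0.37, Padj = 0.62). With all 10 samples the log2 fold change was -0.85 ± 0.38 (Padj = 0.93), and the exact permutation test gave p = 0.04, adjusted p = 0.16. At 4 weeks Kcnh5 overlapped between groups, at 23.3, 10.5 and 5.37 CPM in vehicle and 27.2, 43.8, 15.5 and 35.97 CPM in Cort (log2 fold change 1.21 ± 0.88, Padj = 0.99), and the difference between datasets was 2.31 ± 0.88 (Padj = 0.71). None of the other ether-a-go-go genes tested, 6 at 2 days and 5 at 4 weeks, had P below 0.05 in the 7 samples kept. With all 10 samples Kcnh4 at 2 days was at -2.83 ± 0.97 (P below 0.01, Padj = 0.85), against -0.62 ± 0.99 in the samples kept, with a vehicle sample set aside at 80.2 CPM.

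Among the leak channels, Kcnk9 (TASK-3) was at 16.9, 20.5 and 12.8 CPM in kept vehicle and 23.4, 53.5, 16.1 and 36.2 CPM in kept Cort samples at 2 days, overlapping in Cort sample C06 (log2 fold change 0.95 ± 0.43, Padj = 0.81). The samples set aside widened the gap, at 11.9 and 3.14 CPM in vehicle and 37.3 CPM in Cort, giving 1.35 ± 0.45 (Padj = 0.85) over all 10 samples and p = 0.024, adjusted p = 0.16 by the exact permutation test. At 4 weeks Kcnk9 had the opposite sign, -0.85 ± 0.82 (Padj = 0.99). The abundant Kcnk2 and Kcnk1 were at -0.22 ± 0.19 and 0.53 ± 0.30 at 2 days and 0.60 ± 0.48 and 0.09 ± 0.82 at 4 weeks, none at P below 0.05.

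Of the channels opened by calcium or sodium, Kcnn1, a small-conductance channel, was near the floor at 2 days, with 1 to 3 counts in the kept vehicle samples and 4 to 32 in the kept Cort samples. The ratio of pooled counts was 7.35 with an exact 95% counting interval of 3.17 to 20.9 (log2 fold change 2.85 ± 1.18, Padj = 0.77), but a vehicle sample set aside was at 6.88 CPM, above every Cort sample. That interval covers counting error only, not the spread between samples. Since Kcnn1 passed the filter through its Cort samples alone, a ratio above 1 is no support for a change. Kcnt2, a sodium-activated channel, was at 11.5, 26.5 and 19.7 CPM in kept vehicle and 28.7, 80.00, 46.4 and 60.3 CPM in kept Cort samples at 4 weeks, without overlap (log2 fold change 1.47 ± 0.70, Padj = 0.99). The set-aside samples of Kcnt2, at 23.9 and 1.26 CPM in vehicle and 2.52 CPM in Cort, mixed the groups (p = 0.32, adjusted p = 0.4 by the exact permutation test). The more abundant Kcnn3 was at -0.02 ± 0.27 at 2 days and -0.69 ± 0.40 (Padj = 0.99) at 4 weeks, and Kcnma1 at -0.39 ± 0.25 and -0.07 ± 0.56.

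Among auxiliary genes, Kcnip1, which binds Kv4 channels and raises their surface current, had the smallest P of the channel genes at 2 days. It was at 66.7, 68.3 and 89.3 CPM in kept vehicle and 106, 121, 105 and 137 CPM in kept Cort samples, without overlap (log2 fold change 0.65 ± 0.21, Padj = 0.55). At 4 weeks the kept values were 112, 101 and 46.6 and 179, 169.5, 95.3 and 196 CPM, overlapping in Cort sample C09 (log2 fold change 0.88 ± 0.42, Padj = 0.99). Of the genes tested here, Kcnip1 and Kcna3 were among the 10 smallest P in both datasets, Kcnip1 with the same sign in both, and its difference of the Cort effect was 0.22 ± 0.45 (Padj = 0.98). The samples set aside lay at 82.8 and 129 CPM in vehicle and 105 CPM in Cort at 2 days, and at 175 and 248 and 498 CPM at 4 weeks. The exact permutation tests gave p = 0.063, adjusted p = 0.16 at 2 days and p = 0.25, adjusted p = 0.36 at 4 weeks. The more abundant Kcnip3 (0.16 ± 0.21 and 0.14 ± 0.46) and Kcnip4 (-0.11 ± 0.23 and -0.54 ± 0.60) had P above 0.05 in both datasets. Kcnab1, which joins Kv1 channels, was at 17.9, 26.5 and 11.2 CPM in kept vehicle and 40.6, 34.01, 43.8 and 17.5 CPM in kept Cort samples at 2 days, overlapping (log2 fold change 0.89 ± 0.41, Padj = 0.82), and at 0.98 ± 0.88 (Padj = 0.99) at 4 weeks.

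**Figure D3:**
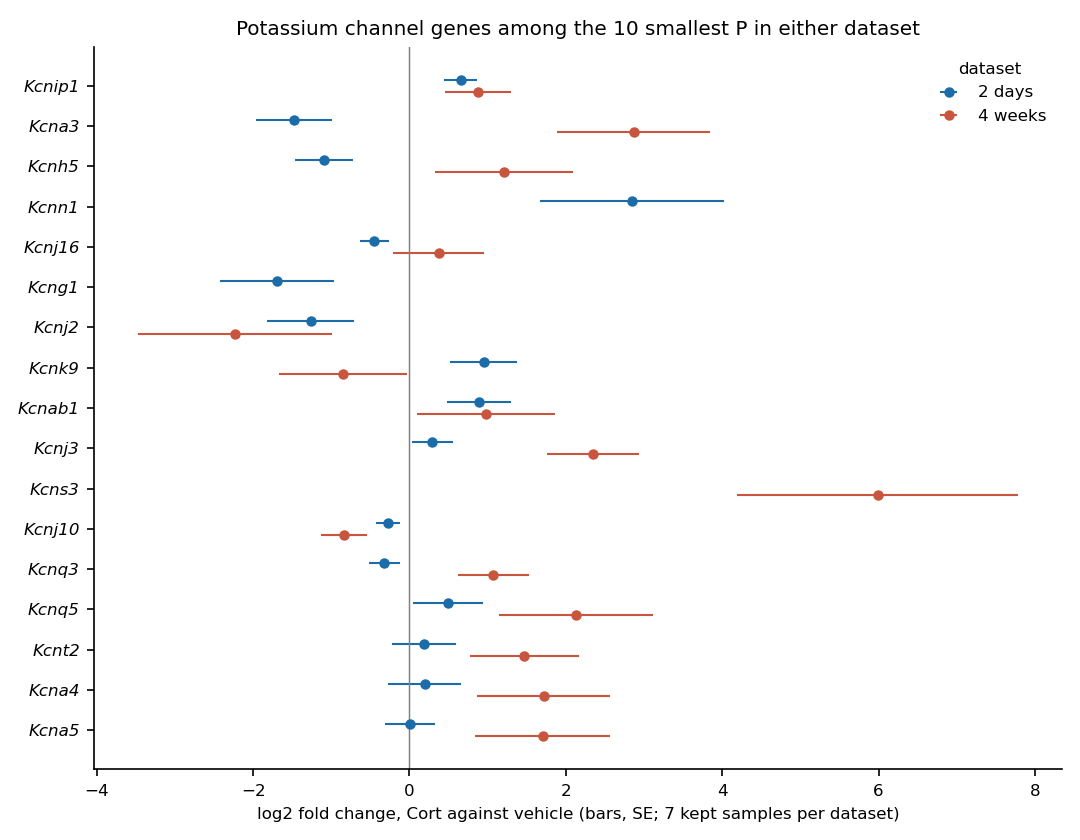
Log2 fold change of Cort against vehicle with its SE from edgeR over the 7 samples kept, for genes described in the text that were among the 10 smallest P at 2 days (blue) or 4 weeks (red). A gene without a point in a dataset did not pass the filter there, and the values of Kcns3 and Kcnn1 rest on vehicle samples at or below 3 counts.

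A test of the difference between the 4 week and 2 day Cort effects asked whether the genes responded differently in the datasets. It covered 63 potassium channel genes, of which 9 (14.3%, against 6.49% of 12777 genes) had P below 0.05, 7 of them with the higher value at 4 weeks, and 4 (6.35%, against 1.35%) had P below 0.01. The 9 include Kcns3, Kcnu1 and Kcng3, and the 4 include Kcns3 and Kcnu1. Each of these had at most 2 counts in every kept sample of 1 treatment group at 4 weeks. They passed the filter through the other groups, so the counts are partly set by the filter. None of the 63 genes reached Padj below 0.1 by edgeR (0.0157% of all genes did), whereas DESeq2 gave 1 of 86 (1.16%, against 0.411%), Kcna3, with 14 (16.3%, against 6.95%) at P below 0.05. The 14 include Kcns3, Kcnu1, Kcng3 and Kcng4, so this share is also partly set by genes with few counts. With all 10 samples 5 of 62 (8.06%, against 6.23%) had P below 0.05. Besides Kcna3, Kcnj3 and Kcns3 (6.10 ± 2.15, Padj = 0.71), the fourth at P below 0.01 was Kcnu1, a large-conductance channel known from sperm, at 6.43, 1.21 and 14.3 CPM in kept vehicle and 0, 0.238, 0 and 0 CPM in kept Cort samples at 4 weeks and 0 to 3.58 CPM in the samples kept at 2 days. All 5 Cort samples at 4 weeks held at most 1 count of Kcnu1, so its fitted difference of -9.24 ± 2.78 depends on the prior count. Kcnmb4 (-4.26 ± 1.87, Padj = 0.75) and Kcng3 (7.22 ± 2.83, Padj = 0.71) were also at P below 0.05, beside Kcnh5, Kcnq3 and Kcna5, and with all 10 samples Kcng3 was at 2.88 ± 2.07, with P above 0.05. At 4 weeks Kcng3 held 0 counts in every kept vehicle sample, so its fitted difference also depends on the prior count, and 31.5% of the exon bases of Kcnmb4 lie in antisense genes that the count tables do not list.

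Over the 51 potassium channel genes tested in both datasets, which share no samples, 32 (62.7%) had the same sign, and across these genes Pearson's r of the log2 fold changes was 0.017 and Spearman's rho 0.178. These describe genes measured in the same libraries, which are not independent points. The median absolute log2 fold change was 0.41 at 2 days and 0.81 at 4 weeks, against 0.26 and 0.51 over all genes tested. The sets were not matched for level, and genes with few counts can have larger absolute fold changes from counting error alone. These medians therefore do not show a stronger response of the channel genes.

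**Figure D4:**
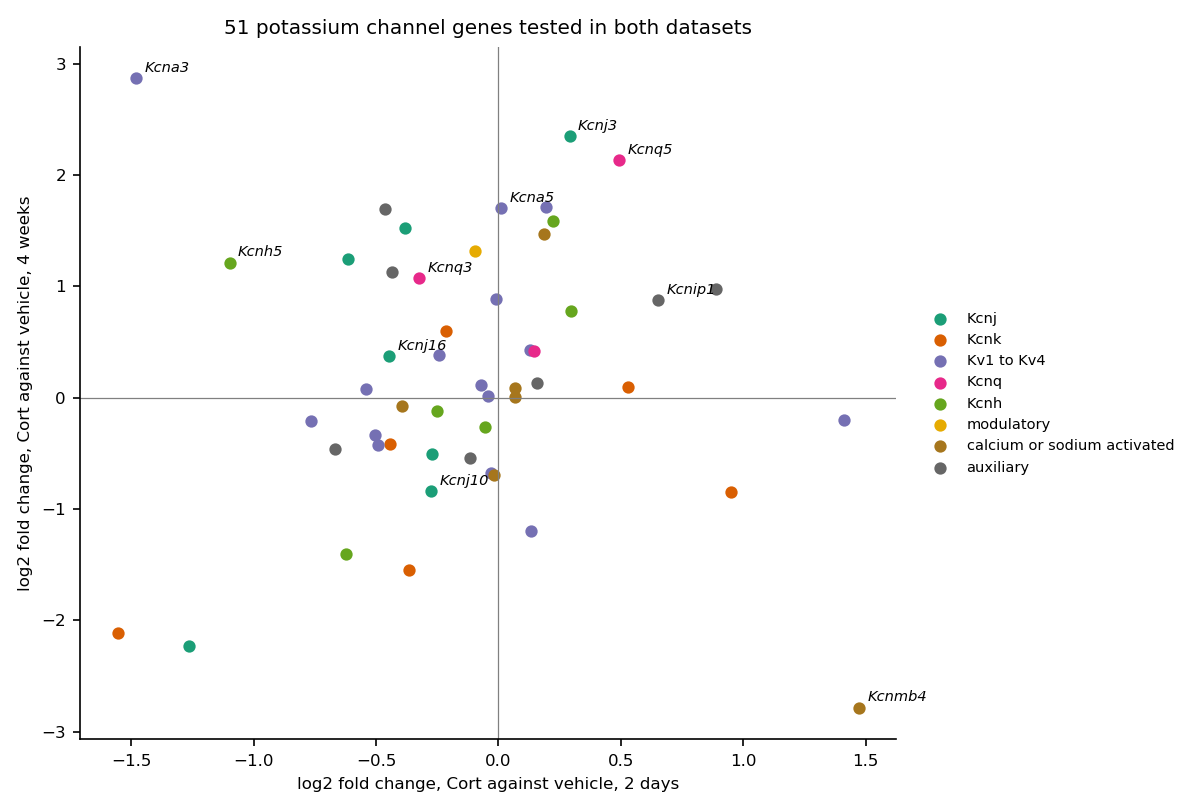
Log2 fold change of Cort against vehicle at 2 days (x axis) and at 4 weeks (y axis) for the 51 potassium channel genes tested in both, coloured by subfamily. Kcna3 lies farthest to the upper left, lower with Cort at 2 days and higher at 4 weeks. Other genes, Kcnh5 and Kcnj6 among them, share these signs, and over the whole cloud Pearson's r is 0.017.

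Genes whose products work with these channels were also described. Of 16 such genes (sulfonylurea receptors, Kv4 and Kv1 partners, large-conductance partners and Hcn channels), 14 were tested at 2 days and 13 at 4 weeks, and none reached Padj below 0.1 in edgeR. At P below 0.05 there was 1 at 2 days and 0 at 4 weeks. The gene at 2 days was Dpp10, which speeds Kv4 gating, with 147.4 to 178.4 CPM in kept vehicle and 106.8 to 138.9 CPM in kept Cort samples (log2 fold change -0.41 ± 0.18, Padj = 0.79). Its relative Dpp6 was at 294.1 to 364.0 and 267.1 to 333.0 CPM (-0.19 ± 0.14, Padj = 0.92). The sulfonylurea receptor Abcc8 was at 3.23 to 7.96 CPM in vehicle and 1.01 to 6.43 CPM in Cort at 2 days (Padj = 0.93).

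Promoter sequences were read for the gene with the smallest P for a difference between datasets and for the most abundant one, since Cort acts through receptors that bind DNA near AGAACA half-sites. Windows of 300 bases from RefSeq (GRCm38.p6), reaching from upstream of the start into the transcript, were found for 69 of the 94 genes, 94 windows in all. AGAACA on either strand occurred in 16 of them (17.02%), against 6233 of all 32851 windows (19.0%). The full palindrome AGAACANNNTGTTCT occurred in 0 of the 94 and 3 of all windows. The Kcnj10 window (chr1:172340960-172341259, plus strand) holds 1 half-site, shown in capitals as it reads on the other strand, and the Kcna3 window (chr3:107035912-107036211, plus strand) holds none, so it is all in lower case. A match is a description of letters and not a binding site.
Kcnj10: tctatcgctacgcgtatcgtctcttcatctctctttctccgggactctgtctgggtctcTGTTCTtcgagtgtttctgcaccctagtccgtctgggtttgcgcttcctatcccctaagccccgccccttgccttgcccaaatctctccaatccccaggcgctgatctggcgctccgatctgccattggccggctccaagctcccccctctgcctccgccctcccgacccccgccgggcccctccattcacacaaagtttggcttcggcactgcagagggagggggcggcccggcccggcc
Kcna3: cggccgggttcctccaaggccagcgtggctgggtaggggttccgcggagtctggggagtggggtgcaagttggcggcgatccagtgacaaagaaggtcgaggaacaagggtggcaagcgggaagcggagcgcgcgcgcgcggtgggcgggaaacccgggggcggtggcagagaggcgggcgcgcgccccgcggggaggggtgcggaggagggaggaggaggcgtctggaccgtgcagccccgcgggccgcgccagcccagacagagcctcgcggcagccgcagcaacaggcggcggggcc

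Other cell type markers were compared in the same way. Of 5 arcuate neuron markers tested, 3 at 2 days and 2 at 4 weeks had P below 0.05, and 1 in each dataset passed Padj below 0.1. Of 6 general neuronal markers, 1 at 2 days (lower with Cort) and 0 at 4 weeks had P below 0.05 by edgeR, and their summed level was 3375 to 3772 CPM in kept vehicle and 3150 to 3792 CPM in kept Cort samples at 2 days, and 2672 to 2882 and 2966 to 3400 CPM at 4 weeks, where every kept Cort sample was above every kept vehicle sample, as for Kcnj3, Kcna3 and Kcnq3. The samples set aside at 4 weeks reached 3416 CPM in vehicle and 3252 CPM in Cort. Most of this sum was Snap25, with means of 1991 CPM in kept vehicle and 2382 CPM in kept Cort samples at 4 weeks. Of the 6 markers 4 had positive log2 fold changes there, and Stmn2 (-0.26) and Tubb3 (-0.68) had negative ones. The list thus did not move as a set, and its part in the 4 week results was not tested. Of the genes induced by glucocorticoids, 2 of 6 at 2 days and 1 of 6 at 4 weeks had P below 0.05, all higher with Cort. Markers of tanycytes and ependyma, the choroid plexus and the ventromedial nucleus had none in either dataset, those of endothelium and pericytes 0 of 6 and 1 of 5, those of microglia 0 of 6 and 1 of 6, those of oligodendrocytes 1 of 6 and 0 of 6 (Mobp, higher with Cort at 2 days, log2 fold change 1.72, Padj = 0.0032), and those of magnocellular neurons 2 of 2 at 2 days.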

How the data were processed

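The authors mapped single-end reads to GRCm38 with Rsubread, counted those falling in each gene with featureCounts, and deposited raw counts of 22048 genes for 10 samples per dataset. The annotation release and the strand setting are not given in the sources used here. The normalised tables deposited by the authors gave the gene symbols, and their mean signal over samples was checked to be that of the 7 samples kept, scaled by DESeq2 size factors. The other columns of those tables, 14 of normalised values per sample and the authors' own fold changes and p-values, were not used. Columns were assigned to groups by the study's list of samples.

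CPM were computed from the deposited counts with TMM scaling over all 10 samples, and exon length came from GENCODE M21 (GRCm38). Cort and vehicle were compared with edgeR 4.0.16 (limma 3.58.1, R 4.3.3) on genes kept by its filter, without covariates, and the datasets by an interaction term. DESeq2 1.42.0, a release of the package that the study used, was the alternative. The 10 genes of smallest edgeR P in each dataset were also compared by the exact 2-sided permutation test of mean log2(CPM + 1) over all 10 samples, with scipy 1.17.1, adjusted over 20 tests. The adjustment does not allow for picking these genes by P in samples that the test uses again. The 3 by 4 samples kept cannot give a p below 0.057 in such a test. The tests were tested on simulated data.

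Genes named are the 10 smallest P in each dataset, the 2 highest levels per kilobase in each subfamily and a list of channels with known roles in neurons or glia. Some genes that meet these rules are not reported here. Kcnu1, Kcnmb4, Kcng3, Kcng4 and Kcnh4 were named after their values were seen. The members, lists and rules were chosen with earlier results of these data known. The scaling (upper quartile), the filter (none, or a minimum of 10 counts per sample) and the samples (all 10, or each left out in turn) were also varied.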

Additional observations from a re-analysis of the deposited data

Results flagged for a closer look

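In 40 groups of 5 samples, from the genes with the 10 smallest P in each dataset, 5 samples stood far from the other 4 of their group. Chance marks about 1 in 20 such groups if values are normally distributed, which CPM of amplified samples near the floor need not be. The 5 of 40 is thus a description only. Kcnn1 at 2 days was at 6.88 CPM in vehicle sample C07, against 0.249 to 0.647 CPM in the other vehicle samples. Kcns3 at 4 weeks was at 16.4 CPM in vehicle sample C05, against 0 to 0.918 CPM, and at 52.2 CPM in Cort sample C07, against 0.315 to 11.4 CPM. Kcnip1 at 4 weeks was at 498 CPM in Cort sample C06, against 95.3 to 196 CPM. Kcna5 at 4 weeks was at 58.7 CPM in vehicle sample C01, against 6.03 to 21.3 CPM. Of these, the Kcns3 value of Cort sample C07 came from a sample the study kept, and the others came from samples it set aside.

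The Cort effect at 4 weeks minus that at 2 days had P below 0.01 for 4 potassium channel genes in edgeR, none with Padj below 0.1. On the log2 scale it was 4.35 for Kcna3 (Padj = 0.7), 2.06 for Kcnj3 (Padj = 0.71), 6.10 for Kcns3 (Padj = 0.71) and -9.24 for Kcnu1 (Padj = 0.71).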

How the results depend on the processing

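All 18 genes among the 10 smallest P of a dataset kept their direction there under each alternative in which they passed the filter. Kcnn1 did not pass it with all 10 samples, and Kcnn1 and Kcns3 passed it in 4 of the 7 fits that left out a sample. At P below 0.05 the 6 genes at 4 weeks became 13 by DESeq2 (16.5%, against 6.53% of all genes), 10 without the filter (12.5%, against 6.94%) and 2 with all 10 samples (4.08%, against 4.9%), and the 9 of the difference between datasets became 14 by DESeq2 (16.3%, against 6.95%) and 5 with all 10 samples (8.06%, against 6.23%). At P below 0.01 the 3 genes at 4 weeks became 7 (8.86%, against 2.18%), 5 (6.25%, against 1.56%) and 1 (2.04%, against 0.971%) under the same alternatives, and the 4 of the difference became 2 with all 10 samples (3.23%, against 1.36%). At Padj below 0.1 the count of 0 became 3 at 4 weeks by DESeq2 (3.8%, against 0.449%), 1 at 4 weeks without the filter (1.25%, against 0.0583%), and 1 for the difference by DESeq2 (1.16%, against 0.411%). The cause was not tested. By DESeq2 the counts at P below 0.05 at 4 weeks and for the difference include Kcns3, Kcnu1, Kcng3 and Kcng4. The DESeq2 count at P below 0.01 at 4 weeks includes them too. These genes have almost no counts in 1 treatment group at 4 weeks. Leaving out each sample in turn gave 5 to 11 genes at P below 0.05 and 0 to 5 at P below 0.01 at 2 days, and 5 to 8 and 1 to 4 at 4 weeks, with 0 at Padj below 0.1 throughout. The count at P below 0.05 at 2 days was 5 without vehicle sample C02 (7.58%, against 5.11%) and 6 without C05 (9.09%, against 4.37%). The count of 3 at P below 0.01 at 2 days became 1 without C03, C04 or C05 (1.52% to 1.64%, against 0.856% to 1.62%), 5 without C06 (8.06%, against 1.82%) and 0 without C10 (against 1.54%), and at 4 weeks it became 1 without C07 (2.04%, against 1.11%) or C08 (1.96%, against 0.91%). Leaving out 1 vehicle sample moved the fold change of 7 genes by over 1.5 times. At 2 days the log2 fold change became -0.85 for Kcng1 without C05 and -0.66 for Kcnj2 without C04. At 4 weeks it became 1.85 for Kcnq3, 2.31 for Kcna4, 2.58 for Kcna5 and 8.84 for Kcns3 without C02, and 3.27 for Kcnq5 without C03. No paired analysis was possible because the columns of the count tables carry no replicate number. Low counts limited Kcns3, Kcnn1, Kcnu1, Kcng3 and Kcng4.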
